A study of Mus musculus with 6 samples.

Results

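The mitochondrial carriers of the *Slc25* family were examined in LSK cells, the lineage marker-negative, Sca-1+ and c-Kit+ fraction of bone marrow that holds haematopoietic stem and progenitor cells. All genes whose array name starts with Slc25a were taken, apart from *Slc25a20*, *Slc25a37* and *Slc25a38*, which gave 44 genes with 98 of the 56605 probes that are not controls. RNA of 3 samples called control and of 3 called *Atg5*f/f;*Vav*, sorted from C57BL/6 mice between postnatal day 6 and day 8, was hybridised to 1-colour Agilent microarrays, 1 array per sample. The control mice carried wild-type *Atg5* (Atg5w/w;VaviCre+), and the others carried floxed *Atg5* on both alleles (Atg5f/f;VaviCre+), so both groups carried the *Vav* promoter-driven Cre, which is active in haematopoietic cells and not only in stem cells. *Atg5* is needed for the formation of autophagosomes, and the comparison asks how gene expression in these cells differs when autophagy is blocked. Whether a sample came from 1 mouse or several is not given in the sources used here, so p values measure only the spread between these samples.

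Carriers of this family sit mostly in the inner mitochondrial membrane, where each protein passes metabolites, nucleotides or cofactors between the cytosol and the matrix, often in exchange for another substrate. The inner membrane is otherwise nearly closed to such molecules, so oxidative phosphorylation, the shuttles that move reducing equivalents, amino acid metabolism, haem and iron-sulphur cluster synthesis and the upkeep of mitochondrial DNA all draw on them. The proteins are encoded in the nucleus, made in the cytosol and inserted by the TIM22 complex of the inner membrane. Some members lie elsewhere, such as *Slc25a17* in peroxisomes and *Slc25a46* in the outer mitochondrial membrane.

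Values are given as log2 signal, which is the log2 intensity of a probe minus that of the array's 75th percentile, so that 0 stands for a probe at that percentile. A fold change is the mean log2 signal of the arrays labelled *Atg5*f/f;*Vav* minus that of the control arrays. A gene is represented by its tested probe with the highest mean signal over all 6 arrays. Levels are compared between arrays for the same probe and not between genes, and a summed signal weighs its brightest probe most, which is named for that reason alone. A gene is called higher or lower where limma with Benjamini-Hochberg adjustment over all 32075 probes tested gave an adjusted p under 0.05. All 6 arrays shared 1 slide, where row 1 held the control samples and row 2 those labelled *Atg5*f/f;*Vav*, so that genotype and slide row cannot be told apart. In control, 59.9%, 59.4% and 59.9% of spots were well above background, against 56.7%, 55.8% and 53.6% in the other group. With 3 arrays in each group, their number sets the precision.

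For *Atg5* itself 1 probe was tested (chromosome 10 of mm9, 44083997 to 44084056). It read 1.10, 0.93 and 1.06 in control against 1.46, 1.51 and 1.74 in the other group, without overlap. Its fold change was 0.54 (SE 0.12, limma, adjusted p = 0.0209), a rise in *Atg5*f/f;*Vav* relative to control that was not called without control replicate 1 or 2 (limma, adjusted p = 0.0727 and 0.0836). The position of this probe relative to the deleted part was not determined, so it does not check the labels, and every direction below rests on them. Of the surface proteins used in the sort, *Ly6a*, which encodes Sca-1, and *Kit* were well above background on all arrays. *Ly6a* had log2 signals of 1.56, 1.31 and 1.53 against 2.89, 2.91 and 3.30, a fold change of 1.57 (limma, adjusted p = 0.00624). *Kit* had a fold change of −0.38 that did not pass (limma, adjusted p = 0.0563).

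Of the 44 carrier genes, 41 were measured, with 82 probes well above background on at least 3 arrays. The probes of the testis isoform of the ADP/ATP carrier *Slc25a31*, the glutamate carrier *Slc25a18* and *Slc25a54* did not reach that level. With *Atg5*f/f;*Vav* set against control, limma called 13 carriers higher, 5 lower and 23 in neither direction. Among all 15136 genes tested, 21.1% were called higher and 13.5% lower, so the carriers' share was 31.7% higher and 12.2% lower. The groups did not overlap for 28 carriers, 19 of them higher and 9 lower, whereas this held for 57.6% of all genes. The median fold change of the carriers was 0.25, with 27 above 0 and 14 below, and that of all genes was 0.02. The carriers ranged from −1.16 to 3.48, and 5 of them differed by at least 1 on the log2 scale, which is 12.2% against 9.30% of all genes. The summed signal of the 41 carriers, on the log2 scale, was 7.23, 7.21 and 7.38 in control against 7.62, 7.54 and 7.67 in the other group.

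**Figure D1:**
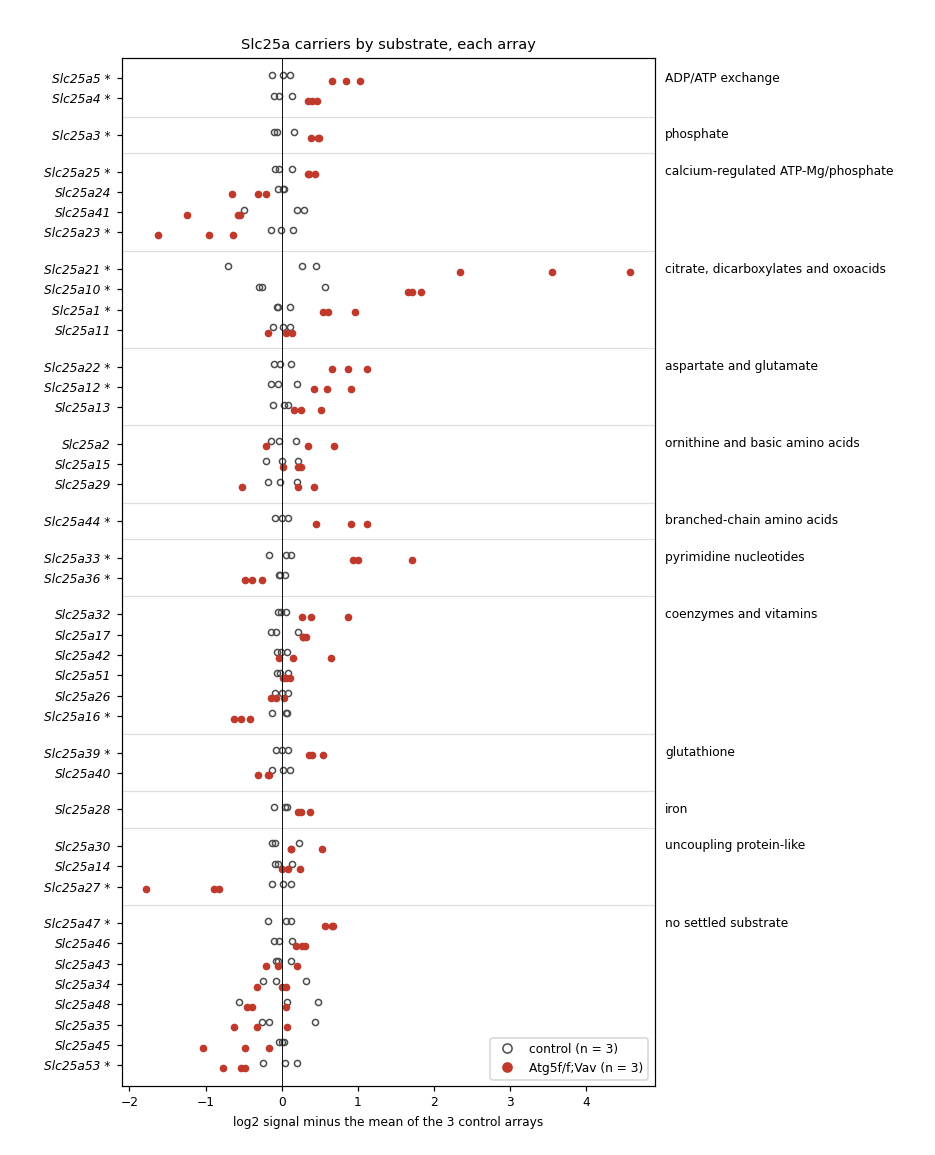
For 40 of the 41 measured carriers (vertical axis, grouped by substrate), the log2 signal on each array minus the mean of the 3 control arrays (horizontal axis), where open circles are control arrays, filled circles are arrays labelled Atg5f/f;Vav and an asterisk marks a call by limma. *Slc25a21* lies farthest to the right, and *Slc25a23* and *Slc25a27* lie farthest to the left among the called members.

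The scaling and single arrays set how many carriers were called. With the 75th percentile taken over the probes detected on all 6 arrays, 9 carriers were higher and 9 lower, the median of all genes moved to −0.19, and the calls over all genes went from 3198 higher and 2047 lower to 1924 higher and 3992 lower. Without control replicate 1 or without control replicate 2, limma called 0 of the 41 carriers, although all 18 called members kept their sign and an unadjusted p under 0.05. With any of the other 4 arrays left out, 9 to 13 were higher and 3 to 6 lower, and the 3 lower calls were those without *Atg5*f/f;*Vav* replicate 2. Beside these control arrays, *Slc25a4* and *Slc25a25* were no longer called without any 1 of the arrays labelled *Atg5*f/f;*Vav* (limma, adjusted p of 0.0577 to 0.0683 and of 0.0629 to 0.0807). *Slc25a3* was lost without replicate 1 or 2 of that group (limma, adjusted p = 0.0572 or 0.0561), *Slc25a39* and *Slc25a53* without its replicate 2 (0.0605 and 0.0748), and *Slc25a36* without its replicate 2 or 3 or control replicate 3 (0.11, 0.0555 and 0.0733). The called members kept their sign in every setting in which they were measured, which for *Slc25a10* and *Slc25a21* leaves out the filter on all 6 arrays.

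The ADP/ATP carriers pass newly made ATP out of the matrix in exchange for ADP. Both measured members were called higher, beside 21.1% of all genes. *Slc25a5* (ANT2, chromosome X of mm9, 34338561 to 34338620) had log2 signals of 4.25, 4.10 and 4.35 in control and 5.08, 4.89 and 5.26 in the others. The lowest array labelled *Atg5*f/f;*Vav* lay above the highest control array. The fold change was 0.84 (SE 0.14, limma, adjusted p = 0.0149), or 1.79-fold, and 0.49 after quantile normalisation. *Slc25a4* (ANT1, chromosome 8 of mm9, 47292828 to 47292887) had log2 signals of 4.60, 4.67 and 4.84 against 5.11, 5.05 and 5.17, which did not overlap either. Its fold change was 0.40 (SE 0.11, limma, adjusted p = 0.0345), and a second probe gave 0.39. For *Slc25a4* the size depended on the scaling, with 0.05 after quantile normalisation (limma, adjusted p = 0.69) and 0.20 with the percentile over detected probes (limma, adjusted p = 0.135). The log2 ratio of *Slc25a4* to *Slc25a5* within an array was 0.36, 0.57 and 0.50 in control and 0.03, 0.16 and −0.09 in the others. It fell by 0.44 without overlap, for which the 2-sided exact permutation test gave p = 0.1, the smallest that 3 arrays against 3 allow, and 0.143 after adjustment over the 10 pairs measured.

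The promoters of these paralogues are shown because both belong to called members of the same function. The sequences are those of RefSeq on GRCm38.p6, from 250 bases before to 50 bases after the first listed start, read on the strand of the gene. A promoter was listed for 34 of the 44 carriers. *Slc25a4* lies at chr8:46211013-46211312 on the minus strand and *Slc25a5* at chrX:36795347-36795646 on the plus strand. Capitals mark matches, on either strand, to any of 5 motifs. The Nrf2 element was searched as TGACNNNGC. The letters of the E box were CACGTG, while those of the CCAAT box are its name. The GATA site was searched as AGATAA, whereas the ETS site was searched as CCGGAAG. No matches overlapped in the promoters printed here.
Slc25a4: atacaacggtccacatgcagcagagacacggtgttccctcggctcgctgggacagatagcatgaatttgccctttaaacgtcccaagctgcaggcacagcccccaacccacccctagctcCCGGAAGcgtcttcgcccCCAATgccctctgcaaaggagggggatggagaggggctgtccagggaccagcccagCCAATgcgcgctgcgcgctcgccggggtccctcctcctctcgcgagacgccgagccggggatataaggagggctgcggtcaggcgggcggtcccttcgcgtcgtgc
Slc25a5: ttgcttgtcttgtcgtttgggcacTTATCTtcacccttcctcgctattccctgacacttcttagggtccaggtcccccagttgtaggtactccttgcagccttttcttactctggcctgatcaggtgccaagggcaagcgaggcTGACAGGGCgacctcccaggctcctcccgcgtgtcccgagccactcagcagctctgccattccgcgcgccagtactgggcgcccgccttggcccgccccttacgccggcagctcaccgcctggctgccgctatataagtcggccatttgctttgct
The *Slc25a4* window held CCAAT at 2 places and the ETS letters at 1, and the *Slc25a5* window held the GATA letters and the Nrf2 element. Over the carriers, the Nrf2 element was found in 7 promoters (20.6%, against 12.5% of all 27025 promoters), the E box in 6 (17.6% against 7.24%), CCAAT in 17 of the 34 (against 37.9%), the ETS site in 5 (14.7% against 9.12%) and the GATA site in 2 (5.88% against 11.4%). These are letter matches and not sites of binding.

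The phosphate carrier *Slc25a3*, which brings in the phosphate that ATP synthase uses, was higher as well. *Slc25a3* (chromosome 10 of mm9, 90579539 to 90579598) had log2 signals of 4.08, 4.04 and 4.31 in control and 4.63, 4.52 and 4.62 in the others, without overlap. It rose by 0.45 (SE 0.12, limma, adjusted p = 0.0287), and a second probe gave 0.64. The representing probe was not called after quantile normalisation, with 0.09 (limma, adjusted p = 0.504), or with the percentile over detected probes, with 0.24 (limma, adjusted p = 0.0897).

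The ATP-Mg/phosphate carriers, which set the total adenine nucleotide content of the matrix and most of which bind calcium, did not move together. Of the 4 members, *Slc25a25* was called higher and *Slc25a23* was called lower, beside 21.1% and 13.5% of all genes. All 4 had groups that did not overlap, as had 57.6% of all genes. *Slc25a23* (chromosome 17 of mm9, 57195712 to 57195771) had log2 signals of −1.23, −1.08 and −1.36 in control and −2.17, −1.86 and −2.85 in the others. Replicate 3 of the arrays labelled *Atg5*f/f;*Vav* was the lowest. It fell by 1.07 (SE 0.25, limma, adjusted p = 0.0221), and its other probes gave −0.33 and −0.87, neither of which was called. The mean of the 3 probes gave −0.76 and was not called (limma, adjusted p = 0.0575). *Slc25a25* (chromosome 2 of mm9, 32270275 to 32270334) had log2 signals of −0.74, −0.79 and −0.57 against −0.35, −0.36 and −0.26. Its fold change was 0.38 (SE 0.11, limma, adjusted p = 0.0383), and both of its other tested probes were called higher with 0.54. With the percentile over detected probes it was not called, with 0.17 (limma, adjusted p = 0.161), whereas *Slc25a24* and *Slc25a41* were then called lower. *Slc25a24* (chromosome 3 of mm9, 108971266 to 108971325) had log2 signals of 1.21, 1.13 and 1.20 against 0.97, 0.87 and 0.53, a fold change of −0.39 (limma, adjusted p = 0.07). *Slc25a41*, the member without calcium-binding domains, had a fold change of −0.79 (limma, adjusted p = 0.0607), with 1 of the 6 arrays not well above background. Within arrays, *Slc25a24* relative to *Slc25a25* fell by 0.77 and *Slc25a23* relative to *Slc25a24* fell by 0.68. Neither ratio overlapped between the groups (exact permutation p = 0.1 for each, adjusted 0.143).

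Among the carriers of citrate, dicarboxylates and oxoacids, 3 of 4 were called higher, beside 21.1% of all genes. On their control arrays alone, neither *Slc25a10* nor *Slc25a21* would have passed the background filter. Both therefore reached the test through the group where they are high. *Slc25a21*, the carrier of 2-oxoadipate and 2-oxoglutarate that serves lysine and tryptophan breakdown, showed the largest measured fold change of all carriers. Its representing probe (chromosome 12 of mm9, 57813812 to 57813871) had log2 signals of −4.28, −4.47 and −5.44 in control and −2.39, −1.19 and −0.15 in the others. Of the control arrays 2 of 3 were well above background, against 3 of 3 in the other group, where replicate 3 was the highest, and the groups did not overlap. The measured fold change was 3.48 (SE 0.57, limma, adjusted p = 0.0149), with a 95% interval from 2.13 to 4.84, and with normexp background correction it was 1.87. As the control signals lay near background, its size is uncertain. A second probe (57819248 to 57819307) was well above background on no control array and on all arrays labelled *Atg5*f/f;*Vav*. Its log2 signals were −6.02, −5.88 and −5.84 against −3.54, −2.47 and −1.51. The mean was at least 6.17-fold higher when the dim group is set no lower than the lowest detected signal of each array (measured means −5.91 and −2.51, limma, adjusted p = 0.0122). That bound leaves out the spread between arrays, and the 95% interval of the measured fold change ran from 2.32 to 4.50. This probe was tested only because of its signal in the group where it is high, so it is no separate support. The promoter of *Slc25a21*, at chr12:57197423-57197722 on the minus strand (GRCm38.p6), is shown as that of the carrier with the largest change, with capitals as above. A further start of the gene is listed by RefSeq and is not shown.
Slc25a21: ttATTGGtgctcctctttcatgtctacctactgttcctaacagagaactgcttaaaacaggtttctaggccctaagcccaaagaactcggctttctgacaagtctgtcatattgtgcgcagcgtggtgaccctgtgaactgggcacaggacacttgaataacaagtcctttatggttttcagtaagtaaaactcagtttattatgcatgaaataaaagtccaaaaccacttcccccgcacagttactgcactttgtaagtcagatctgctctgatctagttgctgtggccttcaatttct
It held 1 match, to CCAAT on the opposite strand, and 43% of its bases were G or C.

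*Slc25a10*, which exchanges malate or succinate for phosphate, had log2 signals of −5.24, −5.20 and −4.37 in control and −3.1, −3.28 and −3.23 in the others (chromosome 11 of mm9, 120359439 to 120359498). Its probe passed background on 1 control array and on each of the others, and 2 of its control values lay below background. The measured rise was 1.73 (SE 0.24, limma, adjusted p = 0.0127), and with normexp background correction it was 0.66. *Slc25a1*, the citrate carrier, which exports citrate for fatty acid and sterol synthesis, rose by 0.70 (SE 0.14, limma, adjusted p = 0.0175), and a second probe rose by 0.35. *Slc25a11*, the 2-oxoglutarate/malate carrier (chromosome 11 of mm9, 70457739 to 70457798), had log2 signals of 3.66, 3.53 and 3.75 against 3.78, 3.71 and 3.47, and the groups overlapped. Its fold change was 0.01, with a 95% interval from −0.30 to 0.31 (limma, adjusted p = 0.976). The measured ratio of *Slc25a10* to *Slc25a11* was 1.72 higher on the log2 scale without overlap (exact permutation p = 0.1, adjusted 0.143). It rests on 2 control values below background and on a probe tested through the group where it is high, so nothing is concluded from it.

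The aspartate and glutamate carriers were called higher in 2 of the 3 measured members, beside 21.1% of all genes. *Slc25a22*, which imports glutamate together with a proton, had log2 signals of −2.03, −2.11 and −1.88 in control and −1.14, −1.35 and −0.89 in the others (chromosome 7 of mm9, 148616089 to 148616148). The fold change was 0.88 (SE 0.15, limma, adjusted p = 0.0152), without overlap, and its other probes gave 0.42 and 0.16, neither called. The mean of the 3 probes was 0.49. *Slc25a12* and *Slc25a13* exchange matrix aspartate for cytosolic glutamate and form part of the malate-aspartate shuttle. *Slc25a12* (chromosome 2 of mm9, 71112979 to 71113038) had log2 signals of 2.57, 2.48 and 2.82 against 3.21, 3.05 and 3.53. The groups lay apart, and the fold change was 0.64 (SE 0.16, limma, adjusted p = 0.027). The 5 tested probes of *Slc25a12* disagreed, with 0.64 and 0.82 called higher, 0.00 for both of a further pair, and −0.46 called lower for the probe from 71165603 to 71165662. The mean of all 5 probes gave 0.20 and was not called (limma, adjusted p = 0.176), and quantile normalisation gave 0.37 for the representing probe (limma, adjusted p = 0.0769). *Slc25a13* had a fold change of 0.31 that did not pass (limma, adjusted p = 0.109), and its second probe was called lower with −0.57.

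Limma called 0 of the 3 measured carriers of ornithine and basic amino acids, beside 21.1% of all genes called higher and 13.5% lower. By limma or by the methods' t-test, 0 of them had an unadjusted p under 0.05. In each the groups overlapped, whereas in 57.6% of all genes they did not. *Slc25a29* (chromosome 12 of mm9, 110064375 to 110064434), which carries basic amino acids, had log2 signals of −3.98, −3.60 and −3.82 in control and −3.38, −3.59 and −4.31 in the others. Its fold change was 0.04, with a 95% interval from −0.56 to 0.63. The ornithine carriers *Slc25a15* and *Slc25a2* had 0.16 and 0.27, and the latter was well above background on 3 of the 6 arrays. *Slc25a44*, a carrier of branched-chain amino acids (chromosome 3 of mm9, 88214562 to 88214621), had log2 signals of −3.01, −3.11 and −2.94 against −2.57, −2.11 and −1.91. The groups did not overlap, and the fold change was 0.83 (SE 0.18, limma, adjusted p = 0.02), whereas a second probe gave 0.09 (limma, adjusted p = 0.694). In control the second probe was the brighter, with a mean of −2.68 against −3.02. The representing probe was thus chosen through the group where it is high, so its call is no firm support for a rise. The mean of both probes gave 0.46 and was not called (limma, adjusted p = 0.0701), and normexp background correction gave 0.51 for the representing probe.

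The pyrimidine nucleotide carriers went opposite ways. *Slc25a33* and *Slc25a36* import pyrimidine nucleotides used to make mitochondrial DNA and RNA. *Slc25a33* (chromosome 4 of mm9, 149118713 to 149118772) had log2 signals of −1.16, −1.38 and −1.09 in control and −0.21, −0.27 and 0.50 in the others. Without overlap, its rise was 1.22 (SE 0.22, limma, adjusted p = 0.0162), or 2.32-fold. *Slc25a36* (chromosome 9 of mm9, 96976224 to 96976283) had log2 signals of 1.37, 1.45 and 1.38 against 1.14, 0.92 and 1.01. Every array labelled *Atg5*f/f;*Vav* lay below every control array, and the fold change was −0.38 (SE 0.11, limma, adjusted p = 0.0376). All 5 tested probes of *Slc25a36* were called lower. Beside the representing probe, those well above background on all arrays gave larger falls of −0.95, −0.64 and −0.63. A further 1 (96993292 to 96993351) was well above background on all control arrays and on none of the others. This probe was tested only because of its signal in control and is no separate support. It was at least 2.30-fold lower in the others (measured means −3.64 and −4.90, limma, adjusted p = 0.00548). The log2 ratio of *Slc25a33* to *Slc25a36* was −2.53, −2.83 and −2.48 in control and −1.35, −1.19 and −0.51 in the others, a rise of 1.59 or 3.02-fold (exact permutation p = 0.1, adjusted 0.143). The promoters of both are shown for comparison, *Slc25a33* at chr4:149774218-149774517 and *Slc25a36* at chr9:97110992-97111291, each on the minus strand (GRCm38.p6), with capitals as above.
Slc25a33: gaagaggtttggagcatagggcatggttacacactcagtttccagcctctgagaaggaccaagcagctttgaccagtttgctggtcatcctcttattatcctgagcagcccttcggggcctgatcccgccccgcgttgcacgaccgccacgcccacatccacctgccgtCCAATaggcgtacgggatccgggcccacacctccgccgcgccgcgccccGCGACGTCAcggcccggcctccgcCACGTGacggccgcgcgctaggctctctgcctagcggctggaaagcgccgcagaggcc
Slc25a36: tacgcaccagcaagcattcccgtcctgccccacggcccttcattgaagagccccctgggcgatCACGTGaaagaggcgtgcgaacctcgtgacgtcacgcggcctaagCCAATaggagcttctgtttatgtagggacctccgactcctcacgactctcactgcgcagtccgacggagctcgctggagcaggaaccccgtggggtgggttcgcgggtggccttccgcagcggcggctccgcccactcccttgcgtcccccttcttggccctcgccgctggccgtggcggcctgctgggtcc
The E box and CCAAT were found in both windows, and the Nrf2 element in that of *Slc25a33*.

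Of the 7 carriers of coenzymes and vitamins, 1 was called lower and 0 higher, beside 13.5% and 21.1% of all genes. At an unadjusted p under 0.05, limma placed 2 higher and the methods' t-test 1. *Slc25a16*, linked to coenzyme A in mitochondria (chromosome 10 of mm9, 62392505 to 62392564), had log2 signals of −1.16, −1.14 and −1.34 in control and −1.75, −1.63 and −1.84 in the others. All control arrays lay above the others, and the fold change was −0.52 (SE 0.12, limma, adjusted p = 0.0202). A second probe of *Slc25a16* gave 0.42 (limma, adjusted p = 0.0931), and the mean of both gave −0.05. *Slc25a42*, the carrier of coenzyme A and adenosine nucleotides (chromosome 8 of mm9, 72708298 to 72708357), had log2 signals of −0.27, −0.35 and −0.40 against −0.37, −0.19 and 0.30, which overlapped. The ratio of *Slc25a16* to *Slc25a42* fell by 0.77 on the log2 scale without overlap (exact permutation p = 0.1, adjusted 0.143). *Slc25a51*, the NAD+ carrier (chromosome 4 of mm9, 45408957 to 45409016), had log2 signals of 4.19, 4.16 and 4.30 against 4.27, 4.22 and 4.33. Its fold change was 0.06, with a 95% interval from −0.18 to 0.30, and a second probe was called lower with −0.46. The folate carrier *Slc25a32* had a fold change of 0.51 (limma, adjusted p = 0.0567). The S-adenosylmethionine carrier *Slc25a26* had −0.06 (limma, adjusted p = 0.7).

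Of the glutathione carriers *Slc25a39* and *Slc25a40*, which bring glutathione into the matrix, the former was called higher and the latter was not called. *Slc25a39* (chromosome 11 of mm9, 102264539 to 102264598) had log2 signals of 3.48, 3.41 and 3.56 in control and 3.85, 3.88 and 4.03 in the others. The groups did not overlap, and the fold change was 0.43 (SE 0.11, limma, adjusted p = 0.027), with 0.83 on a second probe. The representing probe was not called after quantile normalisation, with 0.12 (limma, adjusted p = 0.311), or with the percentile over detected probes, with 0.23 (limma, adjusted p = 0.0865). *Slc25a40* (chromosome 5 of mm9, 8454558 to 8454617) had log2 signals of −1.43, −1.30 and −1.20 against −1.48, −1.62 and −1.49, a fold change of −0.22 (limma, adjusted p = 0.17), and 2 of its 3 other probes were called lower. One gave −0.71, and the other, well above background on no array labelled *Atg5*f/f;*Vav*, was at least 1.67-fold lower (measured means −3.97 and −4.76, limma, adjusted p = 0.0224) and, being tested only because of its signal in control, is no separate support. The log2 ratio of *Slc25a39* to *Slc25a40* rose by 0.65 without overlap (exact permutation p = 0.1, adjusted 0.143). *Slc25a28*, the iron carrier mitoferrin 2 (chromosome 19 of mm9, 43738444 to 43738503), had log2 signals of 2.01, 2.15 and 2.18 against 2.33, 2.37 and 2.49. These did not overlap, but the fold change of 0.28 did not pass (limma, adjusted p = 0.0833).

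**Figure D2:**
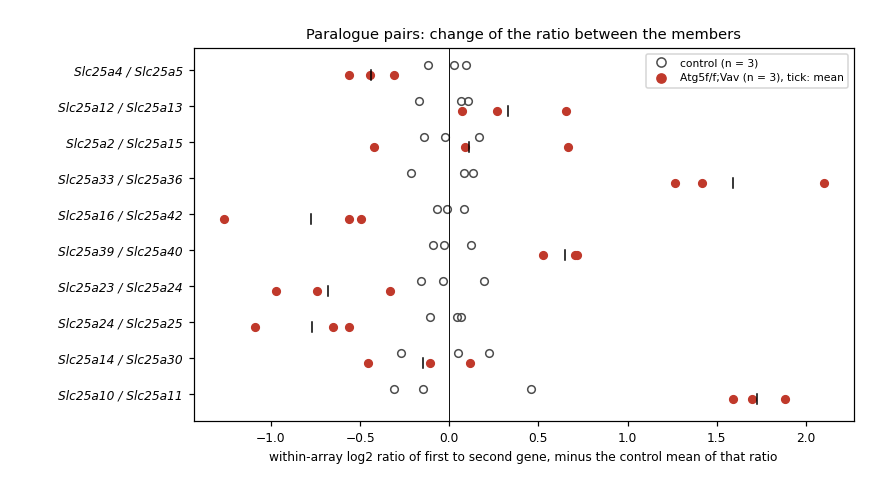
For each of the 10 measured pairs of related carriers (vertical axis), the log2 ratio of the first to the second gene within an array, minus the control mean of that ratio (horizontal axis). Open circles are control arrays, filled circles are arrays labelled Atg5f/f;Vav and a tick marks their mean. The groups did not overlap in 7 pairs, and the ratio of *Slc25a10*/*Slc25a11* rests on 2 control values below background. The share among other pairs of genes was not determined, and 57.6% of all single genes did not overlap.

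Among the carriers that resemble uncoupling proteins, *Slc25a27* (UCP4) was lower. *Slc25a27* (chromosome 17 of mm9, 43778901 to 43778960) had log2 signals of 0.52, 0.76 and 0.66 in control and −0.17, −0.24 and −1.14 in the others. Replicate 3 was the lowest of the latter, and the groups did not overlap. It fell by 1.16 (SE 0.26, limma, adjusted p = 0.0206). A second probe of *Slc25a27* was called lower with −0.86. The other was well above background on no array labelled *Atg5*f/f;*Vav*, where it was at least 2.91-fold lower (measured means −3.43 and −5.39, limma, adjusted p = 0.0188), and as it was tested only because of its signal in control it is no separate support. *Slc25a14* (UCP5, chromosome X of mm9, 46015410 to 46015469) had log2 signals of 0.82, 0.79 and 1.002 against 1.11, 0.88 and 0.95, which overlapped. *Slc25a30* had a fold change of 0.26 (limma, adjusted p = 0.252), and its ratio to *Slc25a14* overlapped between the groups (exact permutation p = 0.6).

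The remaining 8 measured members, taken here as having no settled substrate, held 1 called higher and 1 called lower, no larger a share than among all genes (21.1% and 13.5%). *Slc25a47* (chromosome 12 of mm9, 110094661 to 110094720) had log2 signals of −2.21, −2.51 and −2.27 in control and −1.66, −1.68 and −1.76 in the others. The groups did not overlap, and the fold change was 0.63 (SE 0.12, limma, adjusted p = 0.0167). *Slc25a53*, on chromosome X, fell by 0.60 (SE 0.15, limma, adjusted p = 0.0284), and its second probe fell by 0.88. Quantile normalisation gave −0.39 for the former, which was not called (limma, adjusted p = 0.0916). *Slc25a45* (chromosome 19 of mm9, 5885708 to 5885766) had log2 signals of 3.03, 3.1 and 3.07 against 2.90, 2.58 and 2.03. The lowest of these was again replicate 3, and the fold change of −0.56 did not pass (limma, adjusted p = 0.0813). *Slc25a46*, of the outer membrane, had 0.25 (limma, adjusted p = 0.115).

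**Figure D3:**
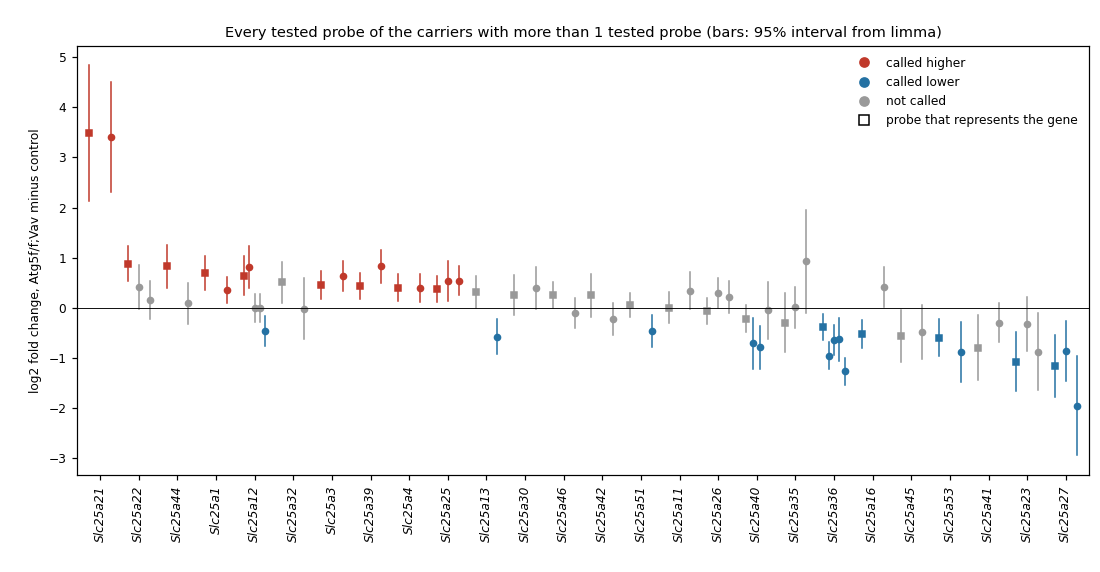
Fold change on the log2 scale (vertical axis) of every tested probe of 26 of the 27 carriers with more than 1 tested probe (horizontal axis, ordered by fold change of the representing probe), with 95% intervals from limma; squares are the representing probes. The 5 probes of *Slc25a36* all lie below 0, 1 of them undetected in one group, and those of *Slc25a12* lie on both sides of it.

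Over all carriers, 27 had more than 1 probe tested, and in 18 of these all probes had the same sign. Limma called 21 of the 82 probes higher and 17 lower, beside 17.3% and 17.1% of all probes, and 4 of these, 1 higher and 3 lower, were well above background in one group only. *Slc25a12* was the 1 gene with probes called in both directions. In *Slc25a13*, *Slc25a40* and *Slc25a51* the representing probe was not called while another probe was. The 76 probes whose gene has a strand listed by RefSeq all lay on the strand of their gene.

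Replicate 3 of the arrays labelled *Atg5*f/f;*Vav* was the farthest from the control mean in 13 of the 18 called carriers. Markers of other cell types also differed between the arrays, and since RNA of the whole sort was measured, fewer cells of a type and less RNA per cell cannot be told apart. The counts in the lists that follow stand beside 21.1% higher and 13.5% lower among all genes. Of 12 erythroid genes, 6 were called higher, *Car1* (3.80), *Gata1* (3.001) and *Klf1* (2.95) most, and 4 lower, *Slc4a1* (−2.29), *Hba-a1* (−2.26) and *Alas2* (−2.07) most. The median log2 signal of the erythroid list was 0.80, 0.45 and 0.31 in control and 1.16, 1.57 and 2.38 in the others, with replicate 3 the highest. Replicate 3 was also the highest for every carrier called higher except *Slc25a3*, *Slc25a10* and *Slc25a47*. The summed signal of the erythroid list, in which the globin gene *Hba-a1* was brightest on average, was 9.49, 9.36 and 8.47 against 7.29, 7.66 and 7.76 on the log2 scale. None of the 12 erythroid genes fell below background on all arrays of a group. Of 13 stem cell genes, 6 were called lower, *Mecom* (−1.75), *Hlf* (−1.65) and *Procr* (−1.56) most, and *Ly6a* was higher. The median log2 signal of the stem cell list was 0.48, 0.33 and 0.53 against 0.01, −0.02 and −0.89, and its summed signal, with *Meis1* brightest on average, was 6.14, 6.17 and 6.05 against 5.70, 5.62 and 5.22. Of 11 myeloid genes, 3 were higher, led by *Ctsg* (1.91), and 6 lower, led by *S100a8* and *Ltf* (−1.38 each), with a summed signal, *Mpo* being brightest on average, of 7.90, 7.52 and 8.24 against 8.26, 7.94 and 8.23. Of 5 stromal genes, 3 were lower, and *Col1a1*, with log2 signals of −4.14, 3.23 and 2.95 in control, was well above background on no array of the other group, so it was tested only because of its signal in control. The summed signal of the stromal list, with *Sparc* brightest on average, was 1.50, 4.96 and 4.61 against 0.61, −0.01 and 0.74. Their part in the results on the carriers was not tested.

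The machinery that imports the carriers was higher throughout. All 11 measured genes of the TIM22 route were called higher, beside 21.1% of all genes, with a median of 0.70, against 0.02 for all genes, and fold changes from 0.46 to 1.11. The list includes *Tomm20*, *Tomm22*, *Tomm40* and *Tomm70a*, which are not part of the TIM22 complex itself. *Timm22*, the channel that inserts carriers into the inner membrane, had log2 signals of 1.94, 1.84 and 1.96 in control and 2.36, 2.34 and 2.52 in the others, a fold change of 0.49 (limma, adjusted p = 0.02). *Tomm40*, *Timm8a1* and *Tomm20*, the members with the largest fold changes, gave 1.11, 0.98 and 0.96. Proliferation genes gave a like picture, with 17 of 17 called higher and a median of 0.67. These counts depend on single arrays. Of the 158 measured genes of all lists, 5 stayed called without control replicate 1 and 2 without control replicate 2, against 92 with all arrays. Among 36 measured enzymes that make or use what the carriers transport, 16 were called higher and 0 lower, beside 21.1% and 13.5% of all genes, with a median of 0.49. By limma and by the methods' t-test, 1 of them was lower at an unadjusted p under 0.05. *Gclm*, of glutathione synthesis, *Mthfd2*, of mitochondrial folate metabolism, and *Shmt2*, of the same pathway, rose by 1.61, 1.59 and 1.09.

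**Figure D4:**
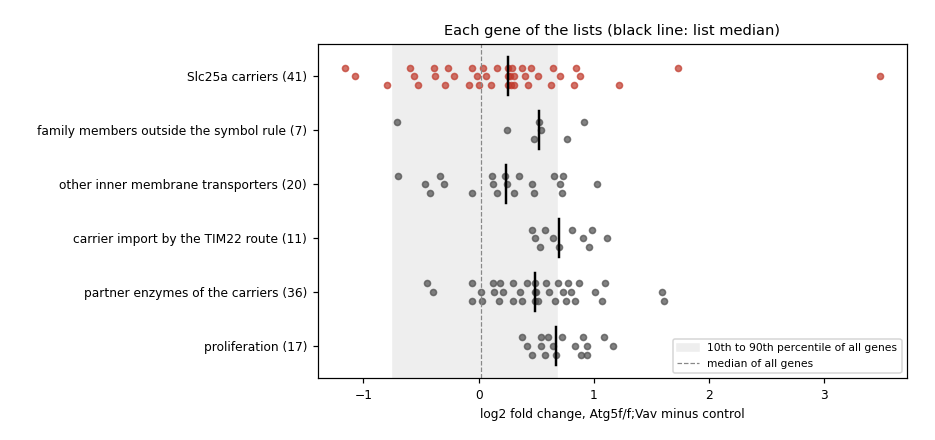
Fold change on the log2 scale (horizontal axis) of each measured gene of 6 lists (vertical axis, number of genes in brackets), with the list median as a black line, the median of all genes as a dashed line and the range from the 10th to the 90th percentile of all genes in grey. The 41 carriers spread from −1.16 to 3.48 around a median of 0.25, whereas all genes of carrier import and of proliferation lie above 0.

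The partner enzymes stood beside their carriers as follows. Of the malate-aspartate shuttle, the carriers *Slc25a12*, *Slc25a13* and *Slc25a11* had 0.64, 0.31 and 0.01, of which the first alone was called and gave 0.20, not called, as the mean of its probes. Its aspartate aminotransferases *Got1* and *Got2* rose by 1.07 and 0.80 and the malate dehydrogenase *Mdh2* by 0.78, whereas *Mdh1* had 0.18 (limma, adjusted p = 0.335). For glutathione, *Slc25a39* rose by 0.43 and *Slc25a40* had −0.22, not called, while *Gclm*, *Gclc*, *Gss* and *Gsr* of glutathione synthesis and reduction rose by 1.61, 0.61, 0.84 and 0.87. For coenzyme A, *Slc25a16* fell by 0.52 on its representing probe, with −0.05 as the mean of both. Of the 4 enzymes of coenzyme A synthesis in the list, *Coasy* and *Pank1* rose by 0.49 and 0.49, and *Pank2* and *Pank3* had 0.13 and −0.06 (limma, adjusted p = 0.375 and 0.707). Around the citrate carrier *Slc25a1*, citrate synthase *Cs* rose by 0.73, and *Acly*, which splits exported citrate, had a fold change of 0.30 (limma, adjusted p = 0.0756). *Slc25a32* had a fold change of 0.51 that did not pass, whereas *Mthfd2*, *Shmt2* and *Mthfd1l*, of the mitochondrial folate pathway, rose by 1.59, 1.09 and 1.01.

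The relatives of these carriers that the rule left out were measured in 7 of 8 genes, with 5 called higher and 1 lower, beside 21.1% and 13.5% of all genes, and a median of 0.52, against 0.02. *Slc25a37*, the iron carrier mitoferrin 1, had log2 signals of 3.49, 3.41 and 3.16 in control and 2.82, 2.58 and 2.55 in the others, and fell by 0.71 (limma, adjusted p = 0.0169). *Slc25a38*, the glycine carrier of haem synthesis, rose by 0.92, and *Slc25a20*, the carnitine/acylcarnitine carrier, by 0.48. The uncoupling proteins *Ucp2* and *Ucp3* rose by 0.54 and 0.52. *Mtch2* rose by 0.77 (limma, adjusted p = 0.0167), whereas *Mtch1* had 0.25 and was not called (limma, adjusted p = 0.166).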

How the data were processed

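LSK cell RNA, from 3 samples of each genotype, was measured on 1-colour Agilent arrays whose 60-mer probes are placed on mm9. The authors deposited scanner files from Agilent Feature Extraction 12.0.3.1, in which the intensity of each spot is background-subtracted and detrended but not scaled between arrays. The authors also deposited a table of normalised signal on a linear scale, which the files show to be the intensity over the 75th percentile of that array's spots. Groups follow the sample labels, and 0 columns of other samples were found.

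From the intensity, the log2 value of each spot was taken, and the 75th percentile of the array's non-control spots was subtracted (656.8, 651.7 and 746.2 in control, 881.4, 698.4 and 620.3 in the others). Outlier-marked spots were left out, and spots of a probe were averaged. Of 56605 probes, 32075 passed background on 3 or more of the 6 arrays. Limma 3.58.1 (R 4.3.3, lmFit then eBayes) tested each of these, 2-sided, and its p values were adjusted by Benjamini-Hochberg across the 32075, with a threshold of 0.05. Genes were named from the array's design, updated through RefSeq symbols (14408 genes) or synonyms (728). Of the array's gene names among the probes tested, 5642 had no match and were left out of the counts of genes. Pairs of carriers were compared by the within-array log2 ratio with a 2-sided exact permutation test. For a probe below background on all arrays of a group, the fold is a lower bound against the lowest signal detected on each array or the probe's own signal, whichever is higher. That bound is on the means and does not include the spread between arrays. Depth cannot be counted on arrays.

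The members, substrate groups, pairs and lists were chosen with earlier results of these data known, so no list was given a p value. Values on every array are given, within each substrate group, for the member with the highest mean signal, the called member with the largest fold change and both members of a pair whose ratios did not overlap. In lists, at most 3 called genes each way are named. Further genes (*Kit*, *Ly6a*, *Timm22*, *Acly*, *Mpc1*, *Smdt1*, *Mcu* and the enzymes and relatives set beside their carriers) were named for their role after their values were seen. The steps were checked on simulated data. Alternatives changed the background correction (normexp with offset 50), the scaling (quantile, the percentile over detected probes, or the deposited signal), the filter on dim probes, the treatment of outlier-marked spots and the choice of probe (mean over a gene's probes). Others changed the test (intensity trend, replicate block, or the methods' t-test) or left out each array. Since the arrays shared 1 slide and 1 scan, neither could enter as a block. The place of probes in exons or UTRs on mm9 was not determined here. The values of 1 carrier are not reported here, although it enters the counts. Flow cytometry, PCR and transplantation data were not analysed here.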

Additional observations from a re-analysis of the deposited data

Results flagged for a closer look

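A further probe of *Slc25a21*, which starts at base 438 of the transcript (chromosome 12 of mm9, 57828174 to 57828233), was not tested because it was well above background on 2 arrays, both labelled *Atg5*f/f;*Vav*, and on 0 of 3 control arrays. It read −6.94, −6.89 and −7.11 in control against −5.70, −3.86 and −3.28 in the other group on the log2 scale, a measured difference of 2.70 between the means. This signal lies outside the values used for the comparison of the carriers and is given with no test. The fourth probe of the gene, at base 2050, was well above background on 0 of 6 arrays.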

How the results depend on the processing

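Beside 13 higher and 5 lower carriers, the normexp, quantile, deposited-signal, trend and 6-array settings gave totals of 10 to 15 higher and 5 to 7 lower, and the last measured 16 of the 18 called members. Without a filter on dim probes 7 were higher and 0 lower (unadjusted p under 0.05 for 14 and 8), with 1988 of all genes, against 5245, and 43 list genes, against 92, called, and *Atg5* (0.54) lost its call. The methods' t-test with Benjamini-Hochberg adjustment called 0 carriers each way, 0 of all genes and 0 list genes, and not *Atg5* (0.54), while 16 and 6 carriers, 6583 genes and 95 list genes had an unadjusted p under 0.05. The percentile over detected probes gave 9 lower carriers, and averaging the probes of each gene gave 3. The carriers' median of 0.25 became 0.12 after quantile normalisation and 0.048 with the percentile over detected probes, where the median of all genes was −0.19. With 1 array left out, the counts ranged from 0 to 13 for higher carriers, 0 to 6 for lower carriers, 122 to 5067 for all genes and 2 to 89 for list genes, lowest without control replicate 1 or 2, and *Atg5* ranged from 0.45 to 0.60, without its call when either was left out. The cause of these differences was not tested. Replicate numbers were not paired by the labels. Deviations of same-numbered arrays correlated at −0.07, 0.28 and 0.07, and with the replicate number as a block 13 carriers were higher and 4 lower, with *Slc25a36* lost. Groups did not overlap in 7 of 10 pairs, in 6 or 7 of 10 under the other scalings, in 7 of 11 without a filter on dim probes and in 6 of 8 with that on 6 arrays. The 7 pairs include *Slc25a10* and *Slc25a11*, whose ratio rests on control values below background. How often ratios of other gene pairs do not overlap was not determined, whereas 57.6% of all single genes did not. The count of pairs is therefore not read as a trait of the carriers. Signals near background limit *Slc25a2*, *Slc25a10*, *Slc25a21*, *Slc25a29*, *Slc25a41* and *Slc25a48*, which that filter left out.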

Other observations

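Of 20 further transporters of the inner mitochondrial membrane outside the family, limma called 5 higher and 2 lower, beside 21.1% and 13.5% of all genes, so neither share stood far from that of all genes. Their median fold change was 0.23 on the log2 scale. *Mpv17l2*, *Sfxn1* and *Letm1* had the largest rises, 1.03, 0.74 and 0.72, of which *Sfxn1* carries serine into mitochondria and *Letm1* takes part in potassium and calcium exchange. *Mpc1*, a subunit of the pyruvate carrier, rose by 0.66, and *Smdt1*, a subunit of the calcium uniporter, rose by 0.48. *Sfxn4* fell by 0.70 and *Mpv17* by 0.34. The calcium uniporter pore *Mcu* had a fold change of 0.35 (limma, adjusted p = 0.198).

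The counts in the other marker lists again stand beside 21.1% higher and 13.5% lower among all genes. Megakaryocyte genes held 1 of 5 higher (*Itga2b*, 1.17) and 2 lower. *Gp9* fell by 0.63. *Ppbp*, well above background on 0 arrays labelled *Atg5*f/f;*Vav*, was tested only because of its signal in control. Its mean was at least 1.91-fold lower (measured means −4.32 and −6.60). Macrophage and monocyte genes held 1 of 4 higher (*Ly86*, 1.79), B cell genes 1 of 7 (*Cd79a*, measured rise 0.95, well above background on 1 control array, so that it was tested through the group where it is high) and mast cell and eosinophil genes 1 of 5. This was *Gzmb*, which was well above background on 0 control arrays and was tested only because of its signal in the others. Its mean was at least 12.7-fold higher there (measured means −6.51 and −1.30). *Gzmb* is not limited to mast cells and eosinophils, and the other 4 genes of that list were not called. Limma called 0 of 5 T and NK cell genes, of which 1 had an unadjusted p under 0.05, and 0 by the methods' t-test.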
